A study of Bos taurus with 96 samples.

Results

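The 16 muscle libraries taken in early lactation (EL), the day after calving, were examined here across all genes, 8 from cows with good genetic merit for fertility (Fert+) against 8 from cows with poor genetic merit for fertility (Fert-). The libraries were chosen by the submitters' tissue, time-point and fertility-group labels alone, and they are 16 of 96 libraries in the series. The study followed 16 Holstein cows, which were biopsied in liver and semitendinosus muscle in late pregnancy (LP), at EL and in mid lactation (ML). Fert+ and Fert- cows had been selected on the estimated breeding value for calving interval and had similar genetic merit for milk production. All cows were kept in 1 herd and were not bred during the lactation studied. Each genotype mixed first and second parity cows, and the parity and sequencing pool of each cow were not used here. The comparison asks which muscle genes differ with genetic merit for fertility as milk production starts, and each library came from a separate cow.

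Skeletal muscle gives up amino acids and burns less glucose when a cow begins to lactate, because the udder takes glucose first. The contractile machine of a fibre is the sarcomere, in which myosin thick filaments pull on actin thin filaments under the control of troponin and tropomyosin, while titin, nebulin and Z-disc proteins hold the lattice together. Fast fibres draw mainly on glycolysis and slow fibres mainly on mitochondrial oxidation, and each type has its own myosin, troponin and calcium-store proteins.

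Libraries held 15527970 to 19393272 counted reads in Fert+ cows (median 17411098) and 15463987 to 19429387 in Fert- cows (median 17094630). Values below are CPM, counts relative to the library total after scaling by edgeR's TMM factors, which ranged from 0.751 to 1.12 in Fert+ and from 0.960 to 1.31 in Fert- libraries. CPM is not divided by gene length, so levels of different genes are not compared. Skeletal muscle markers were present in every library, at 83620 to 283505 CPM summed over 12 genes in Fert+ and 48630 to 156097 CPM in Fert- cows. The libraries of Fert- cows 164 and 419 stood apart in 19 genes. These genes were picked for a median of at most 2 reads and a highest count of at least 50 in each tissue. Cows 164 and 419 had 16 and 14 of them at 50 reads or more, while the other 14 libraries had 0 to 2. The spread between cows of a genotype was wider at EL than at the other time-points, with a common coefficient of variation of 30.6% against 22.3% at LP and 19.6% at ML.

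Of 12035 genes tested, 1 gene passed an adjusted p of 0.05 by edgeR's quasi-likelihood test with Benjamini-Hochberg adjustment, which is 0.00831% of the genes tested. That gene was LMOD1 (leiomodin 1), an actin-binding protein that nucleates actin filaments and is best known from smooth muscle. The next smallest adjusted p was 0.0914. At an unadjusted p under 0.05, 692 genes were higher in Fert+ than in Fert- cows (5.75% of the genes tested) and 734 were lower (6.1%), and the median log2 fold change of all genes was -0.02. Scaling by library totals alone, chosen after seeing the data, moved that split from 48.53% higher to 9.47% higher (207 higher and 1978 lower). Below, genes counted at that unadjusted threshold are called nominally higher or lower, always as Fert+ relative to Fert-, and none of them except LMOD1 passed the adjustment. The number of genes called depended strongly on the test. An exact test with 1 common dispersion for all genes, the dispersion setting of the study, called 438 genes (3.64% of those tested, 256 higher and 182 lower). The study filtered genes in another way, so this is not the study's own count. DESeq2 called 157, and limma voom with sample weights called 0 with 1452 at an unadjusted p under 0.05.

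LMOD1 (ENSBTAG00000021576) ranged from 27.5 to 67.3 CPM in Fert+ cows with a median of 51.1, and from 14.5 to 24.9 CPM in Fert- cows with a median of 20.9. Every Fert+ cow stood above every Fert- cow. LMOD1 was 2.44-fold higher in Fert+ cows (log2 fold change 1.29, SE 0.19, quasi-likelihood adjusted p = 0.0237). Because the groups were separate, the exact two-sided permutation p stood at 0.000155, the smallest that 12870 arrangements allow, and it adds nothing to the separation itself. Leaving out 1 cow at a time kept the log2 fold change between 1.23 and 1.39, with an adjusted p of 0.00308 to 0.0737 that passed in 8 of 16 cases. Without cows 164 and 419 the log2 fold change was 1.29 and the adjusted p was 0.106. In liver at EL the same gene had a Fert+ median of 4.28 CPM and a Fert- median of 4.63 CPM and did not pass (log2 fold change -0.10, SE 0.16, edgeR adjusted p = 0.810 in liver).

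Other genes known from smooth muscle and pericytes were examined beside LMOD1. Of 8 such genes tested, out of 21 listed, 3 were nominally higher and 0 lower, with a median log2 fold change of 0.56. The list includes LMOD1 and PLN, and PLN, which is also in the slow-fibre list below, was among the 3. The 5 of the 8 genes outside the study's EL list had a median of 0.29 with 1 nominally higher. That list holds the genes the study called different in these samples, so the genes left outside it tend to differ less. The calponin gene CNN1 ranged from 3.43 to 15.1 CPM in Fert+ (median 8.63) and from 2.29 to 10.9 CPM in Fert- cows (median 3.87), so that the groups overlapped. The summed level of the 8 genes, PLN among them, was 2194 to 3498 CPM in Fert+ and 1871 to 2809 CPM in Fert- cows. The part of this level in the LMOD1 difference was not tested. In these bulk samples fewer cells of a type and less RNA per cell cannot be told apart.

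The 8 Fert+ and 8 Fert- values did not overlap in 4 genes, 0.0332% of those tested, of which 3 were higher and 1 was lower in Fert+ cows. Besides LMOD1, the named one was ECHDC2, an enoyl-CoA hydratase domain protein. ECHDC2 lay between 14.6 and 38.2 CPM in Fert+ cows (median 18.9) and between 4.39 and 11.9 CPM in Fert- cows (median 8.71). It was 2.50-fold higher (log2 fold change 1.32, SE 0.23), with an adjusted p of 0.0914 by edgeR's quasi-likelihood test. The other two were known by identifier only, with log2 fold changes of 0.65 for ENSBTAG00000006157 and -0.53 for ENSBTAG00000008024.

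**Figure D1:**
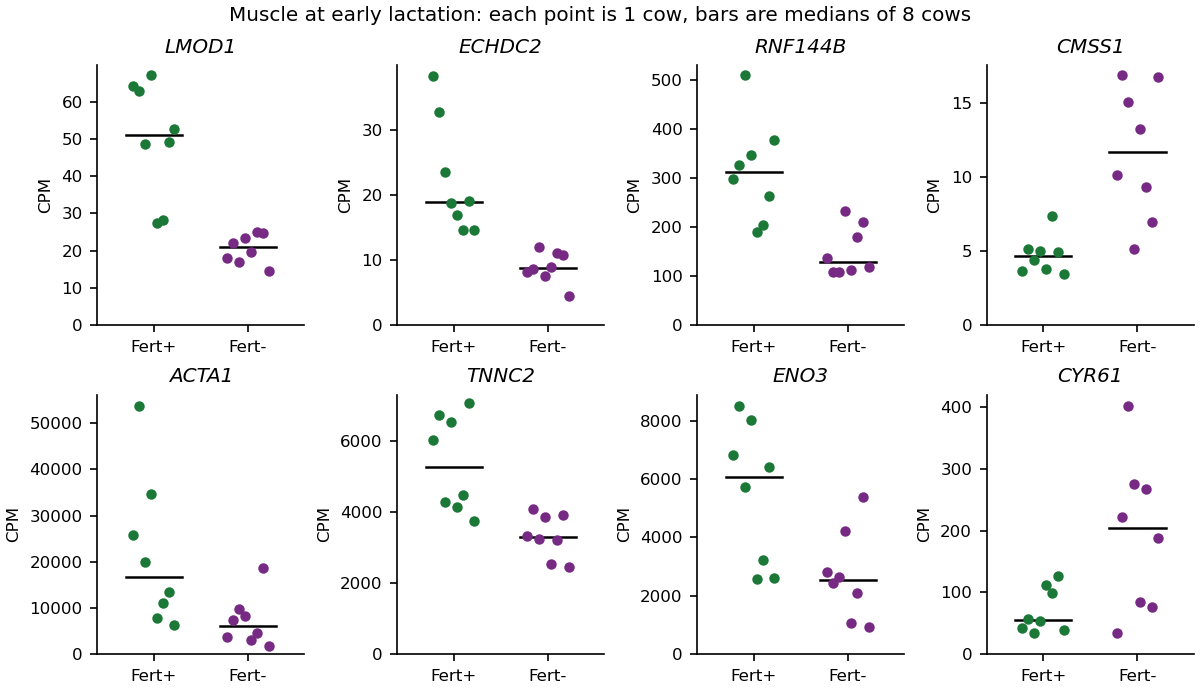
CPM (vertical axis, from 0) in muscle at EL for 8 genes, with 1 point per cow and a bar at the median of 8 cows. Fert+ and Fert- points are separate for LMOD1 and ECHDC2 and overlap for the other 6 genes, among them ACTA1, where 1 Fert- cow at 18766 CPM lies above 4 Fert+ cows.

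Among the 10 named genes with the smallest p on the Fert+ side were regulators of the cytoskeleton, signalling and ubiquitin. RNF144B, an E3 ubiquitin ligase, ranged from 189 to 509 CPM in Fert+ (median 311) and from 108 to 231 CPM in Fert- cows (median 127), and 6 Fert+ cows stood above every Fert- cow (log2 fold change 1.06, SE 0.22, edgeR adjusted p = 0.127). FHOD1, a formin that bundles and caps actin filaments, ranged from 90.1 to 160 CPM against 44.9 to 105 CPM (log2 fold change 0.79, SE 0.16, edgeR adjusted p = 0.127). All 8 Fert+ cows lay above the Fert- median for both of these genes. DUT, the enzyme that breaks down dUTP, had 7 Fert+ cows above every Fert- cow (medians 21.7 and 12.6 CPM, log2 fold change 0.79, SE 0.15). NKD2, an inhibitor of Wnt signalling, stood at medians of 4.08 and 2.21 CPM (0.99, SE 0.20), and PVRL2, the adhesion molecule nectin-2, at 14.4 and 7.62 CPM (0.85, SE 0.18). KCTD15, a BTB-domain protein, had a log2 fold change of 1.47 (SE 0.29), PPP1R1A, an inhibitor of protein phosphatase 1, 0.62 (SE 0.14), and FAM189A2 1.06 (SE 0.24). The adjusted p of these 8 genes by edgeR's test lay between 0.127 and 0.202.

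On the Fert- side, the smallest p belonged to CMSS1, a protein linked to the small ribosomal subunit. CMSS1 ranged from 3.42 to 7.38 CPM in Fert+ (median 4.67) and from 5.17 to 16.9 CPM in Fert- cows (median 11.7), so that 6 Fert- cows stood above every Fert+ cow (log2 fold change -1.31, SE 0.24, edgeR adjusted p = 0.108). E-CADHERIN, an epithelial adhesion molecule that is scarce in muscle, had medians of 0.633 and 4.38 CPM with overlapping groups (log2 fold change -2.70, SE 0.52, edgeR adjusted p = 0.127). ATP6V0A1, a subunit of the proton pump that acidifies lysosomes and endosomes, ranged from 55.1 to 81.3 CPM in Fert+ and from 75.7 to 219 CPM in Fert- cows (log2 fold change -0.96, SE 0.22, edgeR adjusted p = 0.202). The kinase RPS6KA1 had a log2 fold change of -1.45 (SE 0.34), MPPED2, a metallophosphoesterase, -1.57 (SE 0.38), and the centriole protein C2CD3 -1.04 (SE 0.26). NARF, which binds prelamin A, stood at -0.79 (SE 0.19), SULF1, which trims heparan sulfate, at -0.94 (SE 0.24), and the ribosomal protein gene RPL10A at -0.51 (SE 0.13). Symbols of ribosomal protein genes are shared with near-identical copies, so the reads behind RPL10A may be split. The same holds for TPT1 (ENSBTAG00000004526, -4.85, SE 1.17), whose difference rested on Fert- cows 164 and 419 at 571 and 551 CPM while the other 14 cows had 4.08 to 6.57 CPM, and was -0.18 without these cows.

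Genes of the sarcomere stood higher in Fert+ muscle on most members, with wide overlap between cows. Of 14 fast-fibre genes tested (16 listed), 10 were nominally higher and 0 lower, with a median log2 fold change of 0.82 against -0.02 over all genes tested. Of 16 slow-fibre genes, 7 were nominally higher and 1 lower (median 0.37), and of 28 scaffold genes shared by both fibre types (31 listed), 15 were nominally higher and 1 lower (median 0.65). Most genes in these lists were in the study's rankings of liver and muscle genes by level, together called the level ranking here. Many of the rest came from its list of genes that differed at EL, which is not independent of the direction seen here. Among genes named through the level ranking, 927 were tested with a median of 0.03, of which 141 were nominally higher and 70 lower. That set also takes in genes ranked in liver, so it is not a background of genes abundant in muscle alone. Within that set the 12 fast-fibre genes had a median of 0.82 (9 nominally higher) and the 13 slow-fibre genes 0.46 (7). The 25 scaffold genes had 0.44 (13 higher, 1 lower). Some of these genes are also in the study's EL list, MYH2 and ACTA1 among them. Outside that list, 4 fast-fibre genes had a median of 0.51 (2 nominally higher) and 12 slow-fibre genes 0.31 (4 higher, 1 lower). The 15 scaffold genes outside it had 0.28 (4 higher, 1 lower). All 11668 genes tested outside it had a median of -0.02, with 509 nominally higher and 626 lower. Leaving out the study's EL list removes genes because they differed in these same samples. Few calls outside it, here and in the other lists, are therefore partly fixed in advance and are no independent check. Scaling by library totals alone, chosen after seeing the data, moved the median of all genes to -0.21, and the list medians were then 0.60 for fast fibres, 0.19 for slow fibres and 0.42 for the scaffold. Leaving out 1 cow at a time kept the fast-fibre median between 0.69 and 0.99, the slow-fibre median between 0.33 and 0.51 and the scaffold median between 0.55 and 0.71. These values, and all later list values with 1 cow left out, cover the members tested in that fit. Those members can differ from the ones tested with all cows. The slow-fibre count was the least steady, with 4 nominally higher members without Fert+ cow 756 or without cows 164 and 419, and 9 without Fert+ cow 3847.

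The fast troponins all stood higher in Fert+ muscle. TNNC2, the calcium-binding subunit, ranged from 3753 to 7065 CPM in Fert+ (median 5249) and from 2437 to 4068 CPM in Fert- cows (median 3286), and 7 Fert+ cows stood above every Fert- cow (log2 fold change 0.69, SE 0.17, edgeR adjusted p = 0.203). TNNI2, the inhibitory subunit, ranged from 2168 to 6473 against 497 to 2588 CPM (1.18, SE 0.31). TNNT3, which anchors the complex to tropomyosin, ranged from 3129 to 9225 against 880 to 4184 CPM (1.15, SE 0.32). In both of these genes 5 Fert+ cows lay above every Fert- cow. MYLPF, the regulatory light chain of fast myosin, had medians of 6128 and 3681 CPM (0.81, SE 0.23), and CASQ1, the calcium store protein of fast fibres, 1204 and 488 CPM (1.25, SE 0.36). Among the fast myosin heavy chains, MYH2 had medians of 13989 and 6970 CPM (1.08, SE 0.41, nominally higher) and MYH1 had 38637 and 20859 CPM (0.85, SE 0.47, unadjusted p = 0.0901 by edgeR's test). MYH4, the fastest of these chains, stood on the other side at -1.72 (SE 1.05, unadjusted p = 0.119 by edgeR's test), and was at -0.49 without cow 164 and 1.58 without cows 164 and 419. It was named after its value was seen, outside the rule for named genes.

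In the slow-fibre list, MYBPC1, a myosin-binding protein, ranged from 6132 to 14942 CPM in Fert+ (median 9076) and from 2488 to 7134 CPM in Fert- cows (median 4985), and 6 Fert+ cows were above every Fert- cow (0.98, SE 0.23, edgeR adjusted p = 0.202). The slow light chain MYL3 stood at medians of 771 and 438 CPM (0.79, SE 0.24), the slow troponin TNNI1 at 884 and 603 CPM (0.50, SE 0.18), and PLN, which restrains the calcium pump, at 589 and 420 CPM (0.75, SE 0.26). CASQ2, the cardiac and slow-fibre form of the calcium store protein, was the single nominally lower member (-0.72, SE 0.32), with overlapping groups at 4.97 to 12.6 and 5.03 to 25.9 CPM.

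Among the shared proteins, skeletal actin ACTA1 ranged from 6388 to 53645 CPM in Fert+ (median 16672) and from 1730 to 18766 CPM in Fert- cows (median 6000), a 3.01-fold difference with wide overlap (log2 fold change 1.59, SE 0.50, edgeR adjusted p = 0.236). The tropomyosins TPM1 (medians 4199 and 1926 CPM) and TPM2 (14461 and 7081 CPM) had log2 fold changes of 1.21 (SE 0.32) and 1.01 (SE 0.27). The Z-disc protein LDB3 had 1.06 (SE 0.29), and the LIM-domain protein FHL1 had 0.69 (SE 0.19). Nebulin (NEB, 0.60, SE 0.22) was nominally higher, while titin (TTN, 0.39, SE 0.19) had an unadjusted p of 0.0533 by edgeR's test. Myoglobin, MB, the oxygen store of muscle, ranged from 5602 to 9426 CPM in Fert+ and from 3416 to 6674 CPM in Fert- cows (0.68, SE 0.17), and 5 Fert+ cows were above every Fert- cow.

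**Figure D2:**
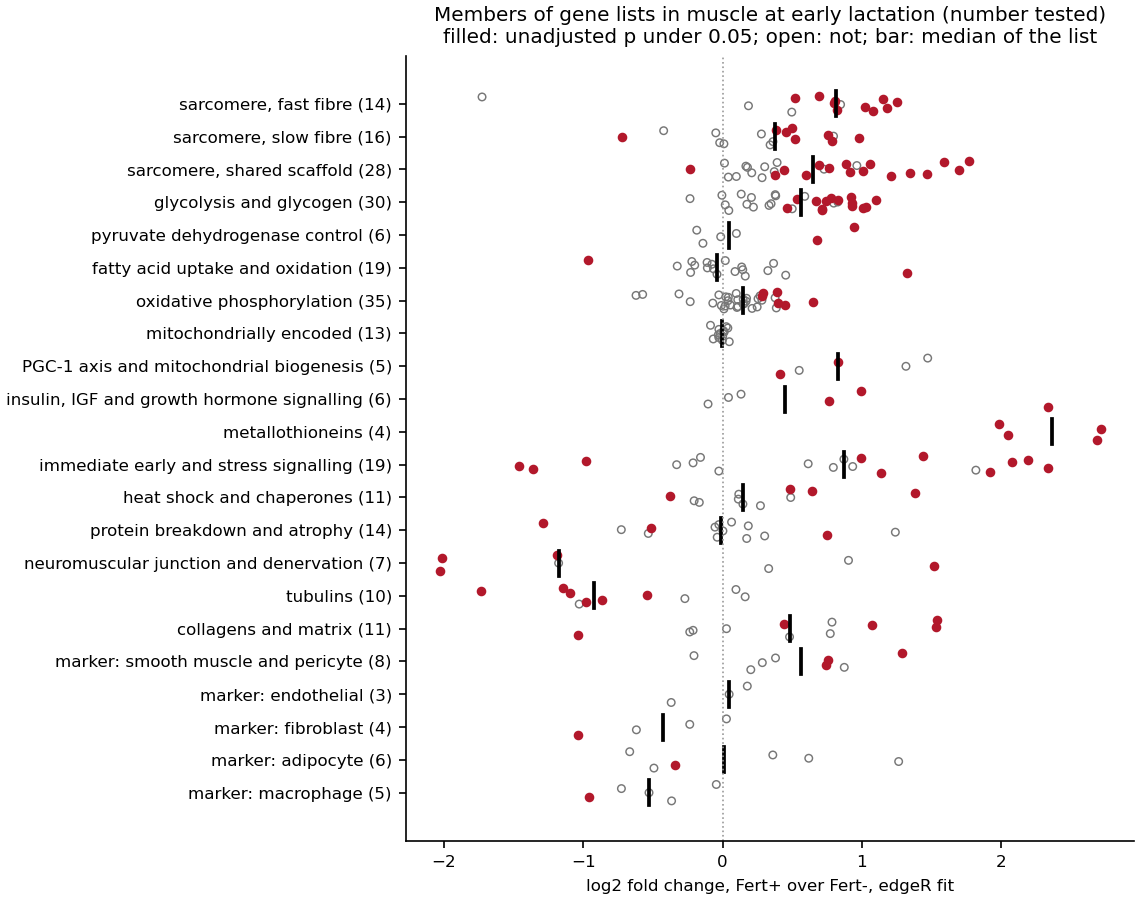
Log2 fold change of Fert+ over Fert- in muscle at EL (horizontal axis, edgeR fit) for the members of 22 gene lists, 1 point per gene. Filled points had an unadjusted p under 0.05, open points did not, and the black bar is the list's median, which is 0.82 for fast-fibre genes, 0.56 for glycolysis and -0.00 for mitochondrially encoded genes.

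Genes of glycolysis and glycogen handling lay on the same side. Of 30 tested (38 listed), 14 were nominally higher and 0 lower, with a median log2 fold change of 0.56. The 25 genes named through the level ranking had a median of 0.46 with 10 nominally higher, and the 19 that were absent from the study's EL list had 0.35 with 5, where all 11668 genes tested outside that list held 509 nominally higher and 626 lower. Leaving out single cows kept the count between 11 (without Fert+ cow 430) and 18 (without Fert+ cow 3397). ENO3, muscle enolase, ranged from 2558 to 8514 CPM in Fert+ (median 6065) and from 932 to 5392 CPM in Fert- cows (median 2529), with 5 Fert+ cows above every Fert- cow (2.04-fold, log2 fold change 1.03, SE 0.36, edgeR adjusted p = 0.280). PGAM2, the muscle phosphoglycerate mutase, ranged from 317 to 978 against 76.1 to 552 CPM (1.10, SE 0.32). The pyruvate kinase gene PKM2 had medians of 4974 and 2539 CPM (1.01, SE 0.35), and the aldolase ALDOA, which is abundant in muscle, 24053 and 14569 CPM (0.67, SE 0.28). These 4 enzymes overlapped between genotypes. AK1, which shuttles phosphate between adenine nucleotides, had a log2 fold change of 0.93 (SE 0.26), GPD1, which passes cytosolic reducing power to mitochondria, 0.92 (SE 0.36), and PGP, which clears a side product of glycolysis, 0.74 (SE 0.23). PRKAG3, a regulatory subunit of the energy sensor AMPK, stood at medians of 99.9 and 49.9 CPM (0.83, SE 0.28), and EPM2A, the glycogen phosphatase laforin, at 70.7 and 36.7 CPM (0.78, SE 0.26). LDHA, which turns pyruvate into lactate, had 0.80 (SE 0.42) and did not pass the unadjusted threshold. The insulin-regulated glucose transporter SLC2A4 ranged from 33.5 to 253 CPM in Fert+ and from 20.0 to 128 CPM in Fert- cows (0.93, SE 0.43, nominally higher), and the transporter SLC2A1 from 1.46 to 14.2 and from 1.37 to 6.94 CPM (0.83, SE 0.42, unadjusted p = 0.0644 by edgeR's test).

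Control of pyruvate entry into mitochondria showed no common direction. Of 6 genes tested (13 listed), PDHA1, a catalytic subunit of pyruvate dehydrogenase, and PDP2, the phosphatase that activates the complex, were nominally higher and 0 were lower (median 0.04). PDHA1 had 7 Fert+ cows above every Fert- cow, at 430 to 947 CPM against 254 to 490 CPM (0.68, SE 0.18). PDK4, the kinase that shuts the complex down, ranged from 3793 to 7915 CPM in Fert+ and from 1787 to 8894 CPM in Fert- cows (-0.14, SE 0.26, unadjusted p = 0.593 by edgeR's test).

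Fatty acid uptake and oxidation genes were divided about evenly, with 1 of 19 tested (34 listed) nominally higher, 1 lower and a median of -0.04. ECHDC2, given above, was the higher one, and ACSL4, which activates long-chain and especially polyunsaturated fatty acids, was the lower one, at 69.3 to 182 CPM in Fert+ and 59.2 to 612 CPM in Fert- cows (-0.97, SE 0.38). UCP3, a mitochondrial carrier that follows fatty acid load, overlapped fully, with medians of 731 and 748 CPM.

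Nuclear genes of oxidative phosphorylation had small differences. Of 35 tested, 6 were nominally higher and 0 lower, with a median log2 fold change of 0.15. That count ran from 5 to 15 when single cows were left out, with 15 without Fert- cow 164, and was 14 without cows 164 and 419. The median turned to -0.04 under library totals. COX7A1, the muscle form of a cytochrome oxidase subunit, ranged from 104 to 186 CPM in Fert+ and from 48.8 to 117 CPM in Fert- cows, and 6 Fert+ cows were above every Fert- cow (0.65, SE 0.16, edgeR adjusted p = 0.203). COX6C (0.40, SE 0.12), NDUFA4 (0.45, SE 0.15) and SDHA (0.29, SE 0.11), all respiratory chain subunits, were also nominally higher. The 13 mitochondrially encoded genes had a median of -0.00, with 0 nominally higher and 0 lower, and Fert+ cow 3445 stood lowest of the 16 cows.

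PPARGC1A, the coactivator that drives mitochondrial biogenesis, varied most among Fert+ cows, from 12.8 to 390 CPM (median 29.4), against 5.86 to 74.6 CPM in Fert- cows (median 21.4). Cow 756 alone gave 390 CPM, and the next Fert+ cow had 42 CPM. The log2 fold change was 1.47 (SE 0.71, unadjusted p = 0.0530 by edgeR's test), with only that cow above every Fert- cow, and it was 0.01 without that cow. The orphan nuclear receptor ESRRG, a partner of the coactivator, had 1.32 (SE 0.63), and 0.64 without cow 756. MFN2, which fuses mitochondria, was nominally higher (0.41, SE 0.18). The 5 genes tested on this axis (21 listed) had a median of 0.83 with 2 nominally higher and 0 lower. Without cow 756 the median was 0.41 with 1 nominally higher. The gene at the median of 0.83 was PRKAG3, given above in the glycolysis list, which with MFN2 made up the nominally higher genes. The 2 genes of this axis outside the study's EL list had a median of 0.48 with 1 nominally higher. LPIN1, which works in lipid synthesis and as a coactivator, stood at 0.55 (SE 0.37) without passing.

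**Figure D3:**
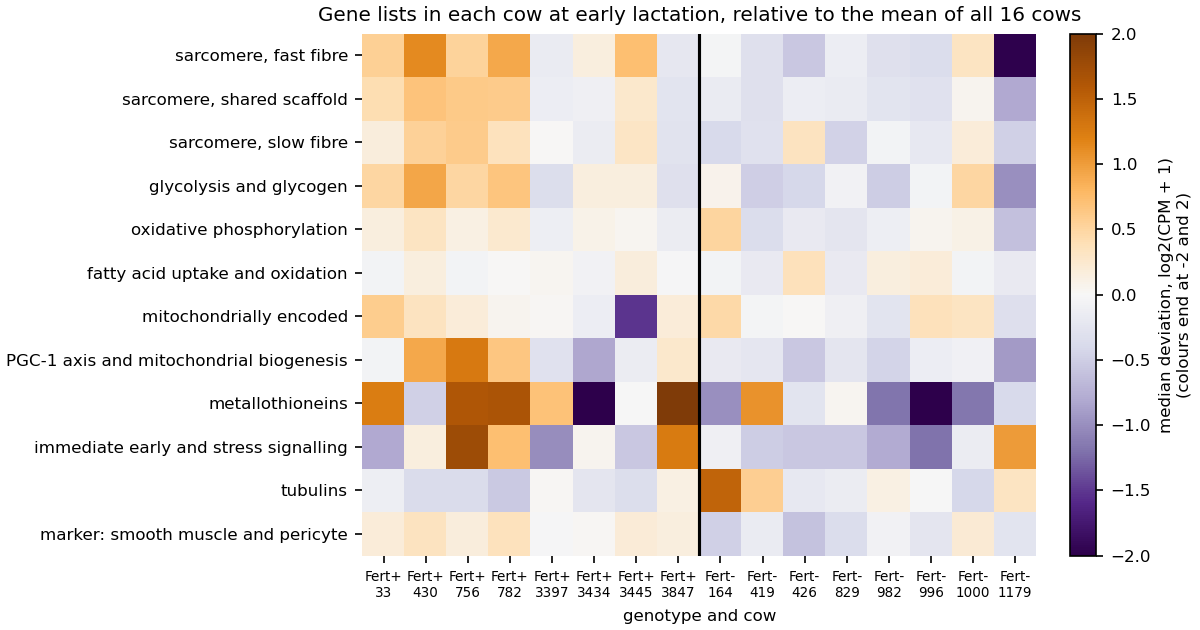
Median deviation of a list's genes from the mean of all 16 cows at EL, on the log2(CPM + 1) scale, for 12 lists (rows) and 16 cows (columns, Fert+ left of the line). Fert+ cows 430 and 782 are high and Fert- cow 1179 is low in the sarcomere and glycolysis rows, while Fert- cow 164 is high for tubulins.

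Transcripts of nerve-muscle contact and tubulins leaned to the Fert- side, and the medians lay nearer 0 in the fit without cow 164. Of 7 genes of the neuromuscular junction and denervation tested (22 listed), 1 was nominally higher and 3 were lower, with a median log2 fold change of -1.18. Without cow 164 the median was 0.03, over all members tested in that fit, which need not be the same 7 genes. Without cows 164 and 419 it was -0.12 over the same 7 genes and -0.56 over all members tested in that fit. Of these 7 genes 6 were in the study's EL list, which is not independent of the direction seen here, and the 1 outside it had 0.33 and did not pass. MUSK, the kinase that organises the synapse, ranged from 0.619 to 3.45 CPM in Fert+ (median 1.15) and from 1.12 to 14.7 CPM in Fert- cows (median 4.33), and 6 Fert- cows were above every Fert+ cow (-2.03, SE 0.53, edgeR adjusted p = 0.203, and -1.75 without cows 164 and 419). The acetylcholine receptor subunits stood on opposite sides. CHRND, the delta subunit, was nominally lower (-2.01, SE 0.83). CHRNE, the adult subunit, was nominally higher (1.51, SE 0.42), at 4.08 to 23.7 CPM in Fert+ and 1.92 to 6.76 CPM in Fert- cows. The muscle regulatory factor MYF6 was nominally lower (-1.19, SE 0.43), and MYOG had 0.90 (SE 0.50) without passing. Of 10 tubulins tested (18 listed), 0 were nominally higher and 6 lower (median -0.92), against a median of -0.54 without cow 164 and of -0.20 with 3 lower without both cows. The 4 outside the study's EL list had a median of -0.09 with 1 nominally lower, and the 3 named through the level ranking had 0.10 with 1 lower. TUBB5 ranged from 69.8 to 132 CPM in Fert+ and from 102 to 346 CPM in Fert- cows (-0.86, SE 0.25), and stayed nominally lower at -0.61 without both cows. TUBB2B (-1.14, SE 0.32) stood at -0.56 without them, while TUBA1D (-1.73, SE 0.65) turned to 0.30. Of 4 genes of Schwann cells and peripheral nerve, 0 were nominally higher and 1 lower (median -1.08), and of 5 genes of satellite cells and regeneration, 2 were higher and 1 lower (median 0.90). Outside the study's EL list each of these lists had 1 gene, at 0.60 and -0.31, and neither passed.

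Genes of protein breakdown did not differ in a common direction. Of 14 tested (29 listed), 1 was nominally higher and 2 were lower, with a median of -0.01. Without cows 164 and 419 the median was 0.16, with 1 higher and 0 lower. FBXO32, the atrophy ubiquitin ligase atrogin-1, ranged from 78.9 to 693 CPM in Fert+ (median 445) and from 321 to 1180 CPM in Fert- cows (median 784), with 5 Fert- cows above every Fert+ cow (-0.73, SE 0.36, unadjusted p = 0.0581 by edgeR's test). TRIM63, the ligase MuRF1, overlapped fully, at 550 to 3848 and 198 to 3083 CPM (-0.04, SE 0.49). UBB, which encodes polyubiquitin, was nominally lower (-0.51, SE 0.22), but stood at -0.18, no longer past the threshold, without cows 164 and 419. USP2, a deubiquitinase under clock control, was nominally higher (0.75, SE 0.31).

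Stress-responsive genes spread widely between cows. All 4 metallothioneins tested (8 listed), which bind zinc and copper, were nominally higher, with a median of 2.37, and each of them was in the study's EL list. MT2 ranged from 9.18 to 1258 CPM in Fert+ (median 321) and from 5.49 to 393 CPM in Fert- cows (median 55.3), with 4 Fert+ cows above every Fert- cow (2.05, SE 0.80, edgeR adjusted p = 0.335), and MT1A had 2.71 (SE 0.94). Without Fert+ cow 3847 the median was 1.55 with 2 nominally higher. Of 19 immediate early and stress-signalling genes tested (32 listed), 7 were nominally higher and 3 lower (median 0.87), and the 5 that were outside the study's EL list had a median of -0.16 with 0 in either direction. BTG2, an antiproliferative gene, ranged from 6.27 to 167 CPM in Fert+ and from 1.83 to 20.3 CPM in Fert- cows (2.19, SE 0.64, and 1.46 without Fert+ cow 756). SOCS3, a brake on cytokine signalling, ranged from 0.863 to 70.2 and from 0.400 to 7.79 CPM (2.34, SE 0.96), and stood at 0.30 without Fert+ cow 3847. CYR61, a matricellular protein induced by mechanical load, stood on the other side, at 34.3 to 127 CPM in Fert+ (median 55.3) and 34.8 to 402 CPM in Fert- cows (median 205), and 5 Fert- cows were above every Fert+ cow (-1.46, SE 0.42, edgeR adjusted p = 0.218). The transcription factor KLF6 was nominally lower with it (-0.98, SE 0.33).

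Smaller lists gave few differences. Of 6 insulin, IGF and growth hormone signalling genes, 3 were nominally higher (median 0.45), and the 3 outside the study's EL list had 0.04 with 0 higher. Among the higher ones were PIK3R1, the regulatory subunit of PI3-kinase (0.76, SE 0.31), and CISH, a feedback inhibitor induced by growth hormone (0.99, SE 0.40). Another was SOCS3, given above with the stress genes and counted among the acute phase genes too. SOCS3 stood at 0.30 without Fert+ cow 3847. Of 6 acute phase genes, 4 were nominally higher (median 0.78), led by IRAK2, an adaptor of interleukin-1 signalling with 6 Fert+ cows above every Fert- cow (1.10, SE 0.26). Without cow 3847 the acute phase median was 0.28, with 1 gene nominally higher and 1 lower. The 2 acute phase genes outside the study's EL list had a median of 0.05 with 0 higher. Heat shock genes had 3 higher and 1 lower of 11 (median 0.15), which without cows 164 and 419 became 5 higher and 0 lower (0.38). The other counts were 1 higher of 9 for glucocorticoid response genes (0.17), 2 higher of 3 for clock genes (0.74) and 4 higher and 1 lower of 11 for matrix genes (0.48). The 5 matrix genes outside the study's EL list had a median of 0.03 with 1 higher, and the 1 clock gene outside it had 0.18. Under library totals the medians for heat shock, glucocorticoid response and pyruvate dehydrogenase control turned to -0.03, -0.07 and -0.16. Cholesterol genes (7 tested, median 0.04) and interferon response genes (5 tested, median -0.05) had 0 in either direction. Of the 18 genes tested that the study's text names for muscle at EL, a list chosen on these samples, 9 were nominally higher and 2 lower (median 0.93). Among these, PNMT, which makes adrenaline, was nominally higher (0.94, SE 0.31), MAOA, which degrades monoamines, was lower (-1.03, SE 0.40), and SDS (0.92, SE 0.52) and APOD (-0.77, SE 0.44) did not pass.

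Few markers of other cell types passed the filter on low counts. Endothelial markers had a median of 0.05 (3 tested, 0 passing), with VWF at 57.4 to 191 CPM in Fert+ and 101 to 180 CPM in Fert- cows. Fibroblast markers had -0.43 (4 tested, 1 nominally lower, the proteoglycan LUM at -1.03, SE 0.44), with DCN at -0.23 (SE 0.27), and a summed level of 72.4 to 263 CPM in Fert+ and 92.0 to 320 CPM in Fert- cows. Adipocyte markers had 0.01 (6 tested, 1 lower), with ADIPOQ at 0.62 (SE 0.57). Macrophage markers had -0.53 (5 tested, 1 lower, SIRPA at -0.96, SE 0.26), with a summed level of 138 to 215 and 118 to 298 CPM, and a median of 0.06 without cow 164. Lymphocyte markers had 0.76 (2 tested, 1 higher), neutrophil markers 0.36 (2 tested, 0 passing) and hepatocyte markers -0.26 (5 of 25 found passed the filter, 1 lower). For the same 5 hepatocyte markers the median was -0.05 with 0 lower without cows 164 and 419. Of 3 erythroid markers found, 0 passed the filter. The skeletal muscle markers themselves had a median of 0.61 (12 tested, 7 nominally higher). The part of cell make-up in the gene differences was not tested.

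The share of all counted reads that fell on 59 sarcomere genes gives the same comparison without scaling factors. At EL it was 17.55% to 31.55% in Fert+ cows (median 25.56%) and 11.62% to 23.71% in Fert- cows (median 18.02%). The groups overlapped, since Fert- cow 1000 at 23.71% stood above 3 Fert+ cows. At LP the share was 28.67% to 35.15% in Fert+ (median 33.53%) and 26.97% to 34.35% in Fert- cows (median 31.48%), and at ML 32.52% to 38.02% (median 36.42%) and 32.46% to 35.41% (median 34.35%). EL was thus the time-point of the lowest share in 7 of 8 Fert+ and 8 of 8 Fert- cows. Cow 430 had the highest share and the lowest scaling factor, 0.751, and cow 1179 the lowest share and the highest factor, 1.31. The order of shares did not follow the factors in every cow. Cow 3445 had 28.85% with a factor of 1.02, and cow 419 had 16.64% with a factor of 0.994.

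**Figure D4:**
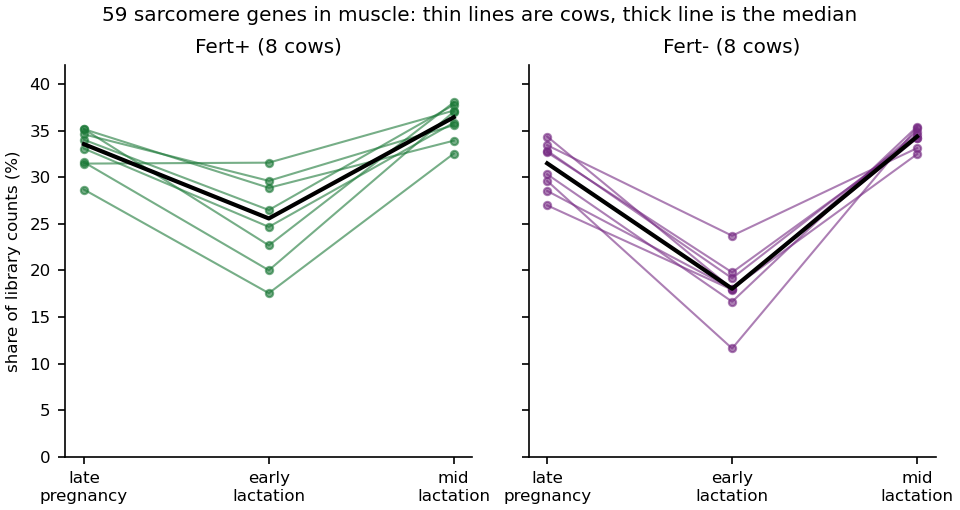
Share of each library's counts on 59 sarcomere genes (vertical axis, percent) at the 3 time-points, with 1 thin line per cow and the median as a thick line. The median is 33.53% at LP and 25.56% at EL in Fert+ cows, 31.48% and 18.02% in Fert- cows, and at ML 36.42% and 34.35%.

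The lists were then followed in the same cows at the other time-points, on the log2(CPM + 1) scale. Fast-fibre genes had a median difference of Fert+ over Fert- of 0.85 at EL, compared with 0.10 in late pregnancy and 0.21 in mid lactation. For scaffold genes the EL difference of 0.64 compared with 0.03 and 0.08, and for glycolysis genes 0.58 compared with 0.08 and 0.18. From the mean of LP and ML to EL, the median fast-fibre gene stood 1.05 lower in Fert+ and 1.87 lower in Fert- cows, the scaffold 0.36 and 0.67 lower, and glycolysis 0.65 and 1.05 lower. Metallothioneins stood higher at EL in both genotypes, by 2.72 in Fert+ and 1.19 in Fert- cows, and protein breakdown genes by 1.01 and 0.82.

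Whether the genotype difference at EL departed from that at LP and ML was tested as an interaction over all 48 muscle libraries. The main fit did not pair the libraries of a cow. It used 1 spread per gene for all 3 time-points, although the common coefficient of variation was 30.6% at EL, 22.3% at LP and 19.6% at ML. A spread shared in this way can be too small for EL. The same fit called 564 genes for the genotype difference at EL, against 1 gene when the EL libraries were fitted alone. Of 12675 genes tested, 7 passed an adjusted p of 0.05 by edgeR's quasi-likelihood test (0.0552%), 5 with a more positive and 2 with a more negative difference at EL. At an unadjusted p under 0.05, 636 genes were more positive (5.02%) and 650 more negative (5.13%). With cow as a replicate block, which pairs the 3 libraries of a cow, 20 genes passed, 5 of them shared with the 7. The blocked fit shared its spread over the time-points too. As paired within-cow differences in limma, 0 genes passed, with a lowest adjusted p of 0.394 that 5 of the 7 genes shared. The interaction shares its EL libraries with the comparison above, so it is not independent of it. The unpaired interaction was positive at the unadjusted threshold for 11 of 14 fast-fibre and 9 of 16 slow-fibre genes. It was also positive for 16 of 28 scaffold and 12 of 30 glycolysis genes, and negative for 0 in each of these lists.

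RNF144B rose at EL in Fert+ cows relative to Fert- cows (interaction log2 1.22, SE 0.22, edgeR adjusted p = 0.0126, 0.0206 with the replicate block and 0.394 as a within-cow difference in limma). On a scale fitted over all muscle libraries, its Fert+ median was 125 CPM at LP, 260 CPM at EL and 134 CPM at ML, and its Fert- median was 154, 106 and 127 CPM. All 8 Fert+ cows were higher at EL than at both other time-points taken singly. CMSS1 did the reverse (interaction -1.31, SE 0.24, edgeR adjusted p = 0.0126, and 0.0206 with the block), with Fert+ medians of 5.81, 3.92 and 5.77 CPM and Fert- medians of 6.39, 9.73 and 4.79 CPM. ATP6V0A1 was higher at EL than at ML in every cow, with an EL median of 56.6 CPM for Fert+ and of 92.4 CPM for Fert- cows (interaction -0.91, SE 0.18, edgeR adjusted p = 0.0145). PVRL2 (0.81, SE 0.16, edgeR adjusted p = 0.0145) was lower at EL than at LP, and than at ML, in all 8 Fert- cows, and higher in 6 of 8 Fert+ cows in each of these comparisons. FHL3, a LIM protein that binds actin in muscle, had Fert+ medians of 410, 282 and 379 CPM and Fert- medians of 303, 112 and 331 CPM (1.26, SE 0.27, edgeR adjusted p = 0.0479). With the replicate block these 3 genes kept an adjusted p of 0.0206 to 0.0276 by edgeR's test, and as within-cow differences in limma they had 0.394 to 0.402 and did not pass.

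The other two calls did not hold with the replicate block. RRAD, a small GTPase that restrains calcium channels, ranged at EL from 63.9 to 1122 CPM in Fert+ cows and from 53.6 to 155 CPM in Fert- cows (interaction 2.21, SE 0.43, edgeR adjusted p = 0.0145, and 0.0524 with the block). RGS16, which ends G-protein signals, ranged from 1.22 to 47.5 and from 0.606 to 3.89 CPM (2.96, SE 0.59, edgeR adjusted p = 0.0190, and 0.0918 with the block). RGS16 was named because it passed this test, outside the rule for named genes. LMOD1 passed with the block alone, with an interaction of 0.86 and an edgeR adjusted p of 0.0813, and 0.85 with 0.0276 under the replicate block. Its medians were 45.2, 42.9 and 58.1 CPM in Fert+ and 34.4, 17.4 and 43.5 CPM in Fert- cows at LP, EL and ML, and it was lower at EL than at LP in 5 of 8 Fert+ and 8 of 8 Fert- cows. NKD2, DUT, NARF, PRKAG3 and COX7A1, described above, were also among the 20 genes of the blocked fit.

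**Figure D5:**
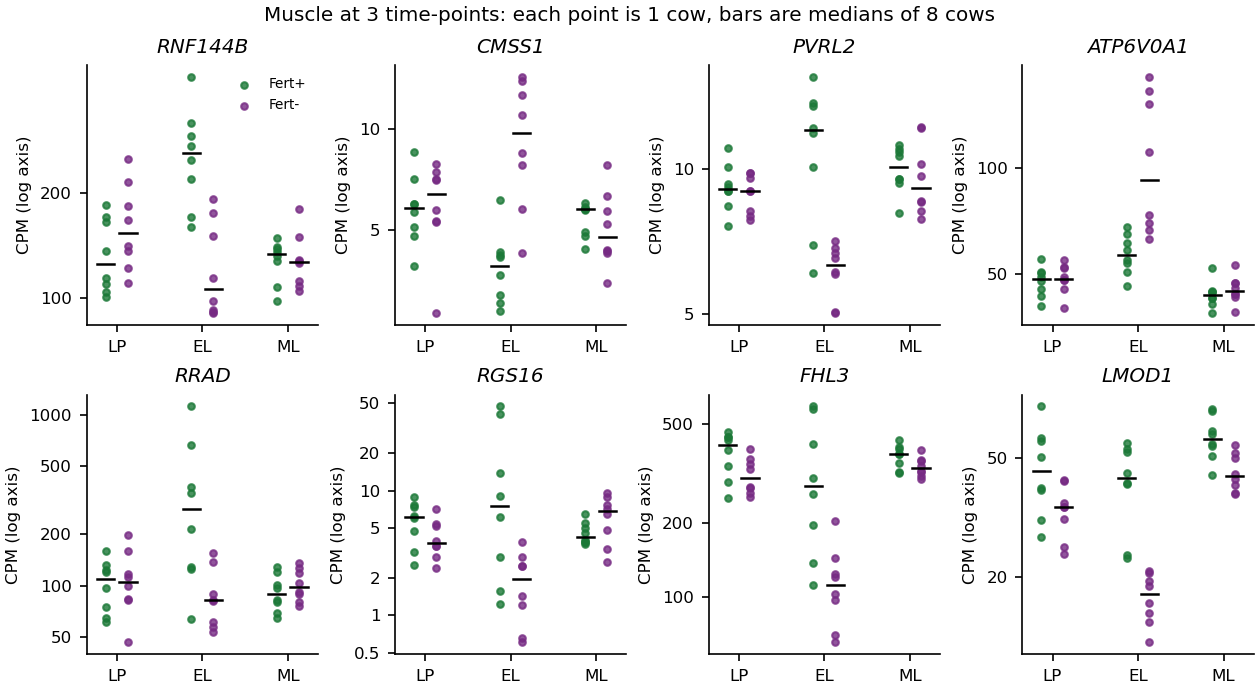
CPM (log axis) at LP, EL and ML for the 7 genes that passed the interaction test and for LMOD1, with 1 point per cow and bars at medians of 8 cows. The genotype medians are apart at EL (260 and 106 CPM for RNF144B), where the points overlap for every gene except LMOD1, and the ranges overlap at LP and ML.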

How the data were processed

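Total RNA was taken from semitendinosus punch biopsies with Trizol, and libraries of its polyadenylated fraction were made with the unstranded TruSeq v2 kit, pooled and sequenced in pairs on an Illumina HiSeq. Per the study's methods and the submitters' processing notes, the authors called bases with CASAVA 1.8, ran Trimmomatic for read trimming and STAR for alignment to the UMD3.1 build, kept proper pairs and counted reads per Ensembl gene with featureCounts. The values used here are these raw counts as deposited by the authors, 1 table per library of 24616 genes, of which 18389 had a count in the 16 libraries used. Because the kit does not keep strand, reads of overlapping genes cannot be told apart. The whole-series count tables, with 96 columns of counts in all, were not used, since their columns carried no sample names.

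Counts were filtered with filterByExpr, scaled by TMM and tested with the quasi-likelihood test of edgeR 4.0.16 (robust, two-sided) in R 4.3.3, with Benjamini-Hochberg adjustment over all genes tested and a threshold of 0.05. An exact test with 1 common dispersion, the dispersion setting of the study, DESeq2 1.42.0 and limma 3.58.1 were used as alternatives. Further alternatives were RLE factors, no gene filter, no robust estimation, a fit of all 48 muscle libraries, the removal of cows 164 and 419, and the removal of each cow in turn. Library totals without TMM factors, and the removal of each cow for list medians, were added after seeing the data. List values with 1 cow left out cover the members tested in that fit. Genotype groups are separate cows. The main interaction fit over time took the 48 muscle libraries as unpaired. Pairing by cow, which the labels give, entered only the replicate block and the within-cow differences. Of 48 same-cow pairs of muscle libraries, 42 had deviations from their group means that correlated above 0.1 (median r = 0.257). For 56 pairs of libraries of a genotype, the lowest chi-square per gene was 24.9, so each was counted as a library of its own. The fits were tested on simulated data. The exact permutation test used differences in mean log2(CPM + 1), with a pseudocount of 1.

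Symbols were available for 2161 identifiers, 983 of them through rankings by level and the others through the study's lists of differences, so named genes are not a random draw. Genes named were those past the threshold, the 10 named genes with the smallest p in each direction at 1 CPM or more, those whose groups did not overlap, leading and most abundant members of the lists, genes that the study's text names, and the 5 smallest p of the interaction. The libraries were taken by their labels, but this comparison and the gene lists were chosen with earlier results of these data known. Chromosomal positions and sequences were not used here, and some genes that the rule covers are not reported here. Depth limits the precision of genes of few counts, and p-values cover the spread between cows. In the edgeR fits of 48 libraries that spread was shared over the time-points, so it was not specific to EL.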

Additional observations from a re-analysis of the deposited data

Results flagged for a closer look

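Each group of 8 cows was examined at EL for a highest or lowest cow far from the rest by Dixon's test on the log2(CPM + 1) scale. Groups of a genotype hold the same 8 cows, so the 202 groups from 101 genes are not independent. Of them, 15 held such an outlying cow, where chance gives about 1 in 20. Fert- cow 1179 was that cow in 7 of them: it was lowest for MYH2 (691 CPM), MYBPC1 (2488 CPM), TTN (15011 CPM), LDB3 (384 CPM), PDHA1 (254 CPM) and ECHDC2 (4.39 CPM), and highest for SULF1 (4.19 CPM). The same cow had the lowest share of counts on sarcomere genes (11.62%). In Fert+ cow 3847, FBXO32 was lowest at 78.9 CPM and MYOG highest at 48.5 CPM. Fert+ cow 756 was highest for PPARGC1A at 390 CPM, and Fert+ cow 3434 lowest for MT2 at 9.18 CPM. Among the other Fert- cows, 419 was highest for UBB (2134 CPM), 164 for ESRRG (5.26 CPM) and 829 for NKD2 (3.45 CPM), and 426 was lowest for KCTD15 (1.98 CPM).

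The difference between genotypes was called different at EL from that at LP and ML in 7 genes by the edgeR interaction test. That fit shared 1 spread per gene over the time-points. The log2 interaction was 1.22 for RNF144B, -1.31 for CMSS1, 0.81 for PVRL2, -0.91 for ATP6V0A1, 2.21 for RRAD, 2.96 for RGS16 and 1.26 for FHL3. With cow as a replicate block 5 of the 7 passed, RRAD and RGS16 not among them, and as paired within-cow differences in limma 0 passed (lowest adjusted p 0.394).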

How the results depend on the processing

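The count of genotype genes was 1 with RLE factors, without the gene filter and without robust estimation. It was 438 with 1 common dispersion, 157 with DESeq2, 564 with all 48 muscle libraries in 1 fit and 3 under library totals, and it was 0 with limma voom weights (lowest adjusted p 0.0872, with 1452 genes under 0.05 unadjusted) and 0 without cows 164 and 419 (0.0563, with 1362). Under library totals 207 genes were nominally higher and 1978 lower, 9.47% higher against 48.53% with TMM factors, and without cows 164 and 419 the higher share was 58.66%. Leaving out 1 cow gave 0 to 7 genes: 7 without cow 1000, 5 without 3434 or 3847, 2 without 164 or 829, 1 without 756, 3397 or 996, and 0 without 33, 430, 782, 3445, 419, 426, 982 or 1179. LMOD1 had a log2 fold change of 1.22 (adjusted p = 0.0904) with limma voom and 1.29 (edgeR adjusted p = 0.106) without cows 164 and 419, and 1.23 to 1.39 leaving out 1 cow. For the interaction, the replicate block by cow gave 20 genes and paired within-cow differences in limma gave 0 (lowest adjusted p 0.394, with 1110 genes under 0.05 unadjusted). RLE factors gave 8 and no filter 6.

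Among list medians, tubulins stood at -0.39 with limma voom and -0.20 without cows 164 and 419, and nerve-muscle junction genes at 0.04 with DESeq2, -0.20 with limma voom, -0.56 without those cows over all members tested in that fit, and -1.30 to 0.03 leaving out 1 cow. Under library totals fatty acid genes stood at -0.24 and cholesterol genes at -0.15. Neutrophil markers stood at -0.18 with DESeq2 and -0.24 to 0.60 leaving out 1 cow, and hepatocyte markers at -1.95 without the gene filter, -1.90 in the fit of 48 libraries and -0.88 to -0.14 leaving out 1 cow. The sign turned for TUBA1D (0.30 without cows 164 and 419), MYH4 (0.81 with limma voom, 1.58 without those cows), PDK4 (0.01 with limma voom, -0.26 to 0.01 leaving out 1 cow) and TRIM63 (0.18 with limma voom, 0.14 without those cows, -0.44 to 0.25 leaving out 1 cow). Of 100 named genes besides LMOD1, 76 passed with 1 common dispersion, 66 in the fit of 48 libraries, 39 with DESeq2 and 2 under library totals. Over all genes tested, 438 of 12035, 564 of 12675, 157 of 12035 and 3 of 12035 passed, in the same order. DESeq2 gave 5133 genes no adjusted p. Many of the 100 were named by their p in these libraries or the study's EL list, a choice not independent of these counts. The cause of the changes between settings was not tested.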
